A study of Mus musculus with 8 samples.

Results

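The IFIT and IFITM genes are antiviral genes whose transcripts rise when cells receive interferon. Their expression was examined here in fibro-adipogenic progenitors (FAPs), the mesenchymal progenitor cells that lie between the fibers of skeletal muscle. The members were taken by gene symbol: Ifit1, Ifit2, Ifit3, Ifit3b and Ifit1bl1 of the IFIT family, and Ifitm1, Ifitm2 and Ifitm3 of the IFITM family. All 8 were found among the 55276 gene symbols of the expression tables, and all 8 passed the filter on low values in every comparison. RNA-seq had been done on GFP+ FAPs sorted from injured tibialis anterior muscle of mice aged 4 to 6 months. Control mice were Osr1 flox/+ CAGG Cre+ and conditional knockout mice (Osr1cKO) were Osr1 flox/flox CAGG Cre+. All mice, controls included, thus carried the tamoxifen-inducible, ubiquitous CAGG Cre and at least 1 floxed allele of Osr1, which encodes a zinc finger transcription factor. All received tamoxifen from the day of injury, and the recombined allele itself supplied the GFP used for sorting. The controls were therefore heterozygous and not wild type, and the deletion was not limited to FAPs. Each genotype had 2 libraries at 3 days post injury (dpi), each from 1 mouse, and 2 libraries at 7 dpi, each from 4 pooled mice. Day and pooling of mice changed together and cannot be told apart. Sequencing instrument and read length may have changed with day as well.

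IFIT proteins are cytosolic and built of tetratricopeptide repeats. Ifit1 holds back translation of viral RNA whose cap lacks ribose methylation, while Ifit2 and Ifit3 bind RNA or other IFIT proteins and form complexes with them. IFITM proteins are small membrane proteins that hinder fusion of enveloped viruses with the cell: Ifitm3, together with Ifitm2, acts mainly in endosomes and Ifitm1 at the cell surface. Type I interferon binds the receptor made of Ifnar1 and Ifnar2, and the signal ends at the interferon-stimulated response element (ISRE) in promoters of its target genes.

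Each family occupied 1 cluster. In GENCODE coordinates of mm10, the IFIT members lay within 99316 bp on chromosome 19 (chr19:34550694-34650009) and the IFITM members within 55934 bp on chromosome 7 (chr7:140954837-141010770). Ifit1 (ENSMUSG00000034459.8) spans positions 34640871 to 34650009, Ifit3 (ENSMUSG00000074896.3) 34583531 to 34588731 and Ifit3b (ENSMUSG00000062488.9) 34607970 to 34613401, all on the plus strand. Ifit2 (ENSMUSG00000045932.12) spans 34550694 to 34576419 on the plus strand, and Ifit1bl1 (ENSMUSG00000079339.7) 34592891 to 34601956 on the minus strand. On chromosome 7, Ifitm1 (ENSMUSG00000025491.14) spans 140967221 to 140969825 on the plus strand. Ifitm2 (ENSMUSG00000060591.9) spans 140954837 to 140955987 and Ifitm3 (ENSMUSG00000025492.6) 141009586 to 141010770, both on the minus strand. Only Ifitm2 overlapped another annotated gene, Gm45717, which lies on the same strand and also overlaps Ifitm5.

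Promoters are shown because the members differ in the ISRE letters they hold. RefSeq windows (GRCm38.p6, 250 bases before to 50 after the annotated start, 10 windows) were found for all 8 members. The ISRE core GAAANNGAAA was searched on both strands, and positions are counted from 0 at the start base. Of 32851 mouse windows, 3.44% held a core and 0.225% held 2 or more. A core was found in 6 of 8 members, and 2 cores in 1 window in 4, namely Ifit1, Ifit3, Ifit3b and Ifitm3. Upstream stretches with a core follow, written 5′ to 3′ on the strand of the gene, with the ISRE core in capitals; on these strands the IFIT cores read as the reverse complement.
Ifit1 (chr19:34640744-34640818, bases -145 to -71): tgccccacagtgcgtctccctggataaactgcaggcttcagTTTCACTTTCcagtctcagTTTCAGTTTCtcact
Ifit3 (chr19:34583329-34583458, bases -200 to -71): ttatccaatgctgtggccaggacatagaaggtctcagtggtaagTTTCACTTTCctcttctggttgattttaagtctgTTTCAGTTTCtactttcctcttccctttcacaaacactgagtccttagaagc
Ifit3b (chr19:34607757-34607886, bases -200 to -71): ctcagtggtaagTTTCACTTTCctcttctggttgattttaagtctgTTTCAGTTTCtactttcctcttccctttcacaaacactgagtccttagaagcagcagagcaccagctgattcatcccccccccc
Ifit1bl1 (chr19:34602039-34602168, bases -200 to -71): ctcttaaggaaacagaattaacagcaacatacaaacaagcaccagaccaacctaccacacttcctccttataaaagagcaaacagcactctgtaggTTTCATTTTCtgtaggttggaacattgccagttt
Ifitm2 (chr7:140955988-140956061, bases -100 to -27): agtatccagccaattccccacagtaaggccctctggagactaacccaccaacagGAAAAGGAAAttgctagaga
Ifit1, Ifit3 and Ifit3b held the same pair of cores, TTTCACTTTC followed by TTTCAGTTTC. The windows of Ifit3 and Ifit3b shared an unbroken run of 169 identical bases. Ifitm3 held its cores just after the annotated start: GAAAAGGAAA at bases 2 to 11, the same letters as in Ifitm2, and GAAACCGAAA at bases 19 to 28. No core was found in the windows of Ifit2 or Ifitm1, which says only that these letters were not in these windows. The gamma-activated site TTCNNNGAA, held by 8.30% of windows, was found in Ifit2 and in Ifitm3, where it overlapped the second ISRE core. Ifit1 faces Ifit1bl2, another gene of the cluster, across 127 bases, and both ISRE cores of Ifit1 lie in that gap and are shared by the windows of both genes.

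Depth bears on how finely each member was measured. With GENCODE exon lengths, the deposited TPM (a transcript's length-corrected share of its library) could be turned back into whole fragments, 36516603 to 51096602 per library. Ifitm3 rested on 20510 to 63242 fragments, Ifit3 on 1285 to 20893 and Ifitm1 on 57 to 189. Ifit1bl1 was the sparsest member with 10 to 283 fragments, so at 7 dpi counting error alone reached 31.6% of its value. All 7 FAP markers were detected in every library. They summed to 26376 TPM in the first control library of 3 dpi, which stood apart, and to 38040 to 52515 TPM in the other libraries. Between the first and the second control library of 3 dpi, Col1a1 was at 12404 and 22891 TPM, Col3a1 at 6401 and 12654 TPM and the endothelial marker Kdr at 16.8 and 2.25 TPM. The FAP markers of that first control library went both ways. Pdgfra (365 TPM) and Ly6a (5407 TPM) were at their highest of all libraries there, and Dcn (1332 TPM) at its highest of 3 dpi. Cd34 (119 TPM) and Thy1 (348 TPM), like both collagens, were at their lowest. The first control library also held the highest summed IFIT level, 1848 TPM, and the differences at 3 dpi are given with and without it. Ly6a, the FAP marker that encodes Sca-1, was called lower in Osr1cKO FAPs at 3 dpi, at -0.95 on the log2 scale (adjusted p = 0.783). The 9 macrophage markers summed to 28.2 to 29.2 TPM in the controls and 32.3 to 33.5 TPM in Osr1cKO libraries at 3 dpi. At 7 dpi the sums were 60.2 to 62.8 and 79.9 to 99.6 TPM, and Ptprc and Itgam stayed under 1 TPM throughout. Cd14 measured 7.97 and 8.12 TPM in the controls and 11.0 and 20.5 TPM in Osr1cKO FAPs at 3 dpi. It was the only macrophage marker called there, while 4 of the 9 were lower and 5 higher. At 7 dpi Cd14 was at 12.3 and 9.94 TPM in the controls and 26.8 and 25.5 TPM in Osr1cKO FAPs. The 5 endothelial markers summed to 21.2 to 44.4 TPM in the controls and 17.2 to 18.0 TPM in Osr1cKO libraries at 3 dpi. At 7 dpi these sums were 46.0 to 61.2 and 47.2 to 71.2 TPM. Tek alone measured 14.9 to 58.4 TPM over all libraries, while Pecam1 and Cdh5 did not exceed 6.25 and 4.16 TPM. The 5 myofiber markers summed to 8.36 to 14.2 TPM over both genotypes at 3 dpi, and to 61.8 to 71.3 TPM in the controls and 42.2 to 42.6 TPM in Osr1cKO libraries at 7 dpi. Erythroid markers summed to 0 to 1.47 TPM at 3 dpi and to 11.7 to 54.0 TPM at 7 dpi. Lymphoid markers summed to 4.28 to 14.5 TPM. The part of these cells, and of the lower FAP marker sum of the first control library, in the IFIT and IFITM levels was not tested. Osr1 was measured over the whole gene at 98.0 ± 9.90 TPM (SD, n = 2) in control and 71.3 ± 0.850 TPM in Osr1cKO FAPs at 3 dpi, and at 69.6 ± 2.86 and 62.6 ± 2.56 TPM at 7 dpi, so the loss of the floxed part was not resolved at gene level.

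IFIT transcripts were most abundant in control FAPs at 3 dpi and were lower in Osr1cKO FAPs of that day. Ifit3 measured 961 and 818 TPM in the control libraries, 423 and 105 TPM in the Osr1cKO libraries at 3 dpi, 101 and 126 TPM in control at 7 dpi, and 76.6 and 96.6 TPM in Osr1cKO at 7 dpi. Both control libraries of 3 dpi were above all other libraries. The second Osr1cKO library of 3 dpi had already reached the level of the 7 dpi controls, while the first lay between it and the controls. In these bulk samples, fewer expressing cells and less RNA per cell cannot be told apart.

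Ifit1 measured 499 and 310.0 TPM in the controls and 188 and 63.1 TPM in Osr1cKO FAPs at 3 dpi. At 7 dpi it was at 101 and 120.5 TPM in the controls and at 79.9 and 99.3 TPM in Osr1cKO FAPs. The 3 dpi groups did not overlap, and the lowest value of all 8 libraries was that of the second Osr1cKO library of 3 dpi, below every 7 dpi library. Ifit2, which in addition to RNA binding is known for promoting apoptosis, measured 137 and 72.2 TPM in the controls and 51.0 and 23.0 TPM in Osr1cKO FAPs at 3 dpi. At 7 dpi it lay between 14.3 and 22.1 TPM in both genotypes, whose libraries overlapped. Ifit2 also had the widest gap between control libraries of 3 dpi among the IFIT members, 1.90-fold.

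Ifit3b, a neighbouring copy of Ifit3, measured 240.3 and 217 TPM in the controls and 117 and 25.5 TPM in Osr1cKO FAPs at 3 dpi. At 7 dpi it lay between 15.6 and 28.1 TPM in the 4 libraries. Ifit3 and Ifit3b share sequence: 41.1% of the 75-base stretches of Ifit3 and 35.7% of those of Ifit3b occur in the other, so the split of fragments between them is uncertain. With both summed as 1 entry, the log2 fold change at 3 dpi was -2.07, the same as for Ifit3 alone. Ifit1bl1, an Ifit1-like gene, was low throughout, at 10.1 and 7.65 TPM in the controls and 1.78 and 0.642 TPM in Osr1cKO FAPs at 3 dpi. At 7 dpi it did not exceed 1.03 TPM in any library. Both groups of 3 dpi were apart also for this sparse member.

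The IFITM members did not share 1 pattern. Ifitm3 ranked between 5 and 31 among all 55276 symbols by TPM. It measured 7489 and 6952.5 TPM in the controls and 5957 and 4113 TPM in Osr1cKO FAPs at 3 dpi. At 7 dpi its deposited values were 2912 and 2819 TPM in the controls and 3145 and 3265 TPM in Osr1cKO FAPs. Osr1cKO libraries were thus below the controls at 3 dpi and above them at 7 dpi on this scale. After scaling, the 7 dpi libraries overlapped, with 3073 and 2934 TPM in the controls and 3061 and 3054 TPM in Osr1cKO FAPs.

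Ifitm2 varied least. It lay between 961 and 1296 TPM in all 8 libraries, and its ranking among all symbols stayed between 103 and 153. The 3 dpi groups overlapped, with 1296 and 1153 TPM in the controls and 961 and 1267 TPM in Osr1cKO FAPs. Of its 75-base stretches, 42.0% occur in other genes, mainly Gm45717 and the pseudogenes Gm8865 and Gm11951. Ifitm1 was low and moved apart from the others, at 12.6 and 8.48 TPM in the controls and 4.62 and 3.98 TPM in Osr1cKO FAPs at 3 dpi. At 7 dpi it measured 12.8 and 15.7 TPM in the controls and 13.4 and 15.4 TPM in Osr1cKO FAPs. Both Osr1cKO libraries of 3 dpi were lower than every other library.

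**Figure D1:**
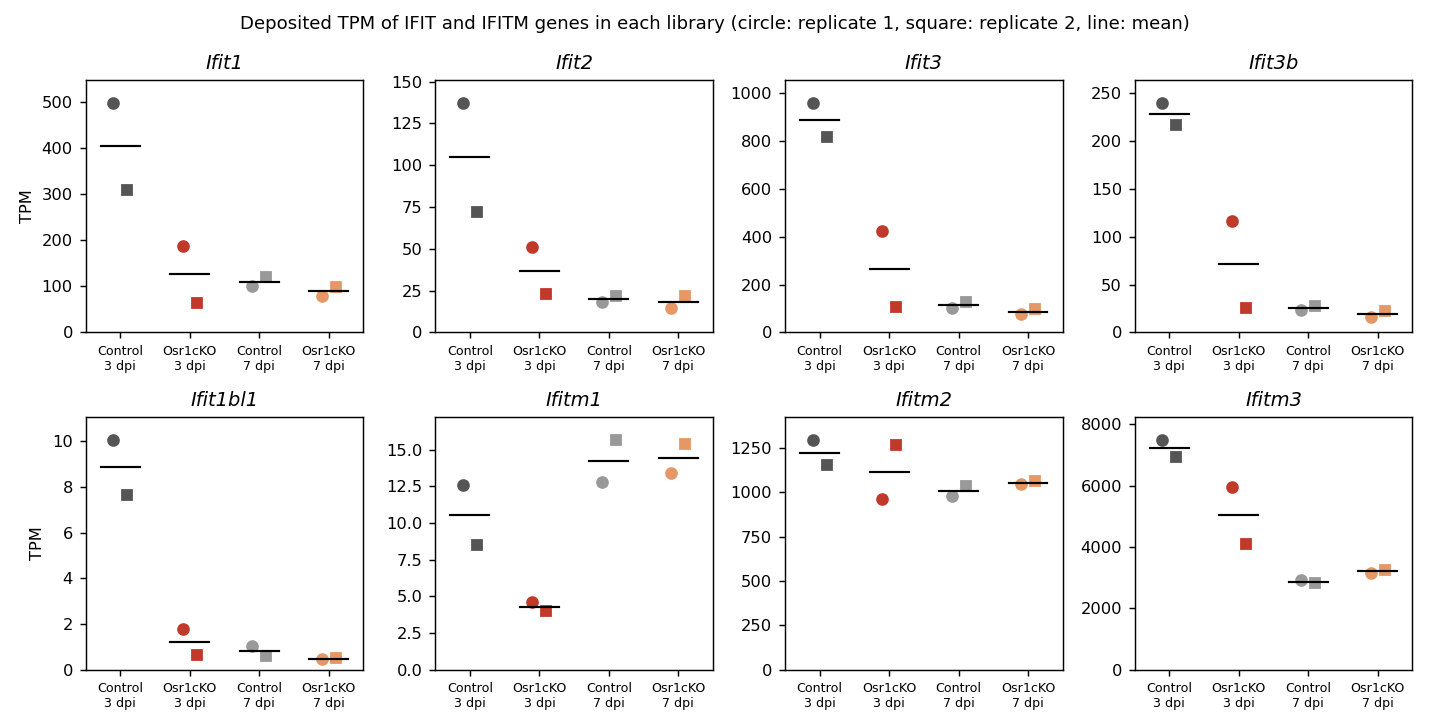
Deposited TPM (linear axes starting at 0) of the 8 members in each library of the 4 groups; circles are replicate 1, squares replicate 2 and lines group means. The 5 IFIT members are high in control FAPs at 3 dpi and spread widely in Osr1cKO FAPs at 3 dpi, Ifitm1 is low only in the latter group, and Ifitm2 stays between 961 and 1296 TPM.

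The genotypes were first compared at 3 dpi, with limma on log2(scaled TPM + 1), over 15698 features. A call needed a fold change over 1.2 and an unadjusted p under 0.05, the thresholds of the study for this day. All 5 IFIT members and Ifitm1 were called lower in Osr1cKO FAPs, 6 of 8 members, while 6.27% of all features were called in either direction and 3.95% were called lower. No member was called higher. After Benjamini-Hochberg adjustment no feature had an adjusted p under 0.1, and the members called had adjusted p-values of 0.770 to 0.776 in limma. The calls at this day therefore rest on unadjusted p-values. On scaled TPM both Osr1cKO libraries were below both controls for 7 members, all but Ifitm2, against 18.4% of all features.

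Among the IFIT members, Ifit1bl1 had the largest difference with a log2 fold change of -2.19 (SE 0.326). With a pseudocount of 0.1 in place of 1 its value was -2.91. Ifit3 and Ifit3b differed by -2.07 (SE 0.663) and -2.04 (SE 0.703) on the log2 scale. Ifit1 differed by -1.84 (SE 0.561) and Ifit2 by -1.51 (SE 0.476). The unadjusted limma p-values of the 5 genes ran from 0.00107 for Ifit1bl1 to 0.0337 for Ifit3b. As ratios of mean TPM these were 2.83-fold to 7.30-fold lower levels in Osr1cKO FAPs. By log2 fold change the 5 members ranked between 22 and 102 from the lowest of 15698 features. Their median was -2.04, beside 0.01 over all features tested.

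Ifitm1 fell by 1.11 on the log2 scale (SE 0.249, adjusted p = 0.770), from a mean of 10.6 to 4.30 TPM. Ifitm3 was lower by 0.55 without passing the test (log2 fold change -0.55, 95% interval -1.47 to 0.38), an interval that holds no difference as well as a fall of more than 1 log2 unit. Ifitm2 had a log2 fold change of -0.15 (95% interval -0.69 to 0.38).

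The size of the IFIT difference depended on the libraries. The first Osr1cKO library of 3 dpi exceeded the second by 2.21-fold for Ifit2, 2.98-fold for Ifit1, 4.03-fold for Ifit3 and 4.58-fold for Ifit3b. Without the second Osr1cKO library, the log2 fold changes of Ifit3, Ifit3b and Ifit1 were -1.05, -0.94 and -1.04 and remained called, whereas Ifit2 at -0.93 did not. Without the first Osr1cKO library, they were -3.10 for Ifit3, -3.14 for Ifit3b and -2.65 for Ifit1. Without the first control library, Ifit1, Ifit2, Ifit3 and Ifit3b no longer passed the test, with log2 fold changes of -1.51, -1.07, -1.97 and -1.98, and without the second control library Ifit3 and Ifit3b did not pass. Where 1 library of a group is left, it is taken to vary like the other group. Ifit1bl1 and Ifitm1 were called with any single library left out, at -2.59 to -1.80 and -1.36 to -0.86. The direction held for the 5 IFIT members, Ifitm1 and Ifitm3 in all of these fits.

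**Figure D2:**
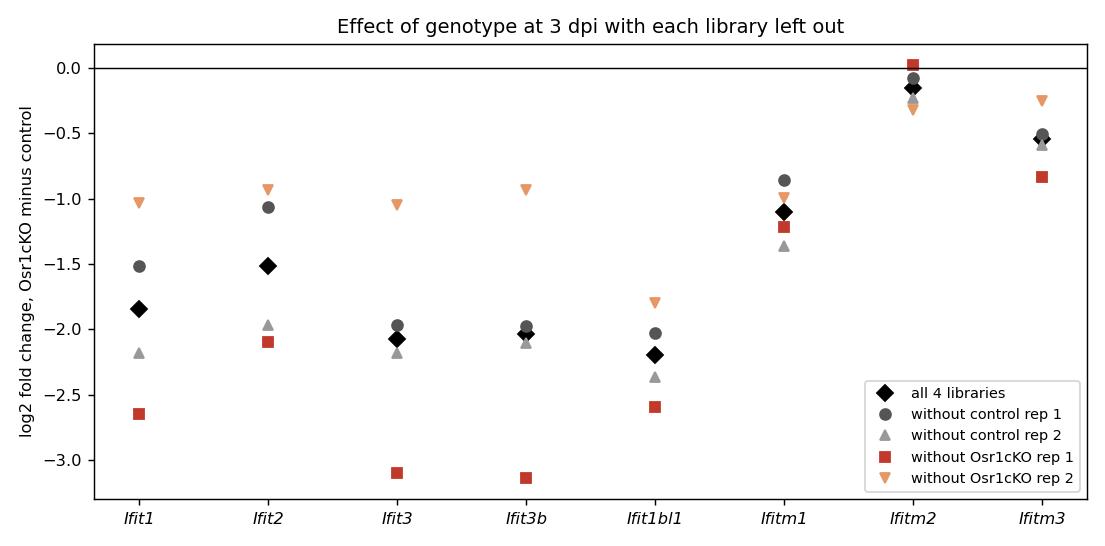
Log2 fold change (Osr1cKO minus control) of each member at 3 dpi from all 4 libraries (black diamonds) and with each library left out in turn. Leaving out the second Osr1cKO library moves Ifit3 from -2.07 to -1.05 and leaving out the first moves it to -3.10, while Ifit1bl1 stays between -2.59 and -1.80.

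At 7 dpi the difference between genotypes was small for both families. A call at this day needed a fold change over 1.2 and an adjusted p under 0.1, again after the study, and was met by 0 of 8 members in limma and in limma-voom on recovered fragments, beside 0.0664% of 16577 features. The 5 IFIT members had log2 fold changes of -0.57 to -0.29. At an unadjusted p under 0.05 with the same fold change, Ifit1, Ifit3 and Ifit3b passed, all lower. These were 3 of 8 members, beside 11.1% of all features in either direction and 999 of 16577 features lower. Their log2 fold changes were -0.44, -0.52 and -0.57, with limma adjusted p-values of 0.310, 0.301 and 0.322. Ifitm1, Ifitm2 and Ifitm3 had values of -0.11, -0.07 and 0.03. The 95% interval of Ifitm3 ran from -0.33 to 0.38. At this day the scaling moved the median of all features from 0.11 on deposited TPM to 0.002 on scaled TPM, and on deposited TPM Ifitm1 and Ifitm2 were slightly positive, at 0.02 and 0.07. On scaled TPM 5 members lay lower in Osr1cKO FAPs without overlap, Ifit1, Ifit3, Ifit3b, Ifit1bl1 and Ifitm2, beside 23.2% of all features. For Ifitm2 this order reversed on deposited TPM, with 979 and 1036 TPM in the controls and 1046 and 1067 TPM in Osr1cKO FAPs.

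Both families were then compared between days within each genotype. In control FAPs, 6 of 8 members were called lower at 7 dpi (fold change over 1.2, adjusted p under 0.1), where 49.2% of 16522 features were called and 25.1% were called lower. Ifit3b fell by 2.99 (SE 0.122) and Ifit3 fell by 2.86 (SE 0.154) on the log2 scale, with limma adjusted p-values of 0.00340 and 0.00342. Log2 changes were -2.37 for Ifit1bl1, -2.16 for Ifit2, -1.73 for Ifit1 and -1.23 for Ifitm3. Without either 7 dpi control library Ifitm3 lost its call, although its log2 change stayed at -1.26 and -1.19. Ifitm1 had a log2 change of 0.51 (adjusted p = 0.124) and Ifitm2 one of -0.18 (adjusted p = 0.442).

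In Osr1cKO FAPs, 2 of 8 members were called between days, where 56.2% of 16278 features were called, 28.5% lower and 27.7% higher. Ifitm1 rose by 1.50 on the log2 scale (SE 0.156, adjusted p = 0.00229). Ifitm3 fell by 0.67 (adjusted p = 0.0941), a call that was lost when any library but the second of 3 dpi was left out. The 5 IFIT members had log2 changes of -1.54 to -0.34 and were not called, with adjusted limma p-values of 0.104 to 0.608. Without the second Osr1cKO library of 3 dpi all 5 were called lower, at -2.65 to -0.95. Without the first, Ifit3 and Ifit3b were called lower at -0.32 and -0.46 and Ifit1 was called higher at 0.45, so this comparison is not settled for the IFIT members.

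**Figure D3:**
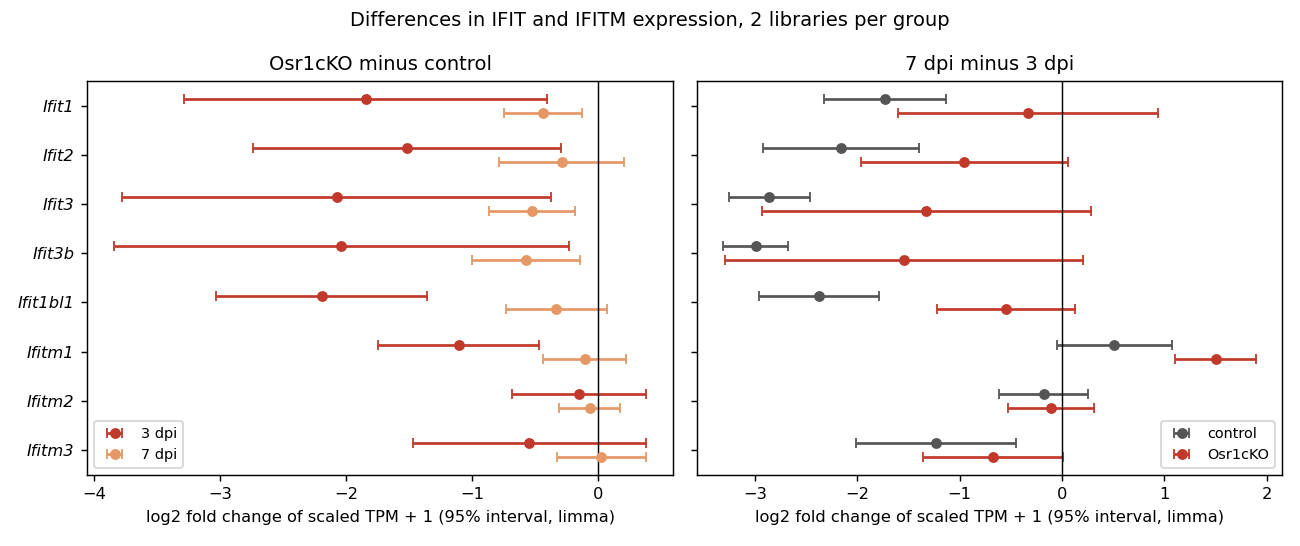
Log2 fold changes of the 8 members with 95% intervals from limma (horizontal axes) between genotypes at 3 and 7 dpi (left) and between days in control and Osr1cKO FAPs (right). The intervals of the 5 IFIT members and Ifitm1 exclude 0 at 3 dpi, and in the day comparison the estimates of Ifitm1 lie to the right of 0 and those of the IFIT members to the left, with intervals that include 0 for the IFIT members in Osr1cKO FAPs.

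The 4 comparisons share libraries, so their agreement is no independent support. Whether the effect of genotype differed between days was tested as an interaction over all 8 libraries (17368 features). At an adjusted p under 0.05, 0 of 8 members and 0% of all features passed in limma, and 0 members passed in limma-voom. At an unadjusted p under 0.05, 6.76% of features passed, and Ifit1bl1 and Ifitm1 were the members among them. Their interaction terms were 1.84 (SE 0.388) and 0.99 (SE 0.274), with adjusted limma p-values of 0.516 and 0.611. The terms of the other IFIT members were 1.21 to 1.54, with 95% intervals that reached below 0. Without the first Osr1cKO library of 3 dpi, Ifit3 alone passed, with a term of 2.55. On deposited TPM the median interaction of all features was 0.11, beside -0.0013 on scaled TPM.

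The make-up of the IFIT transcripts differed between the days. These ratios compare TPM, a level per length, within a library. Ifit3 made up 48.2% to 57.4% of the summed IFIT TPM in the 4 libraries of 3 dpi and 40.1% to 42.4% in those of 7 dpi. Ifit1 took 21.8% to 29.1% at 3 dpi and 40.6% to 42.7% at 7 dpi. Ifit3 was thus the leading transcript at 3 dpi and level with Ifit1 at 7 dpi. The ratio of Ifit3 to Ifit1 was 2.28 ± 0.503 in control and 1.95 ± 0.413 in Osr1cKO FAPs at 3 dpi, and 1.03 ± 0.0254 and 0.966 ± 0.00997 at 7 dpi (SD, n = 2 each). The genotypes overlapped at 3 dpi, and no library of 3 dpi came as low as any of 7 dpi. The second Osr1cKO library of 3 dpi, whose summed IFIT level of 217 TPM lay within the 7 dpi range of 187 to 297 TPM, kept a ratio of 1.66. By contrast, Ifit3 over Ifit3b stayed between 3.61 and 4.89 in all 8 libraries.

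**Figure D4:**
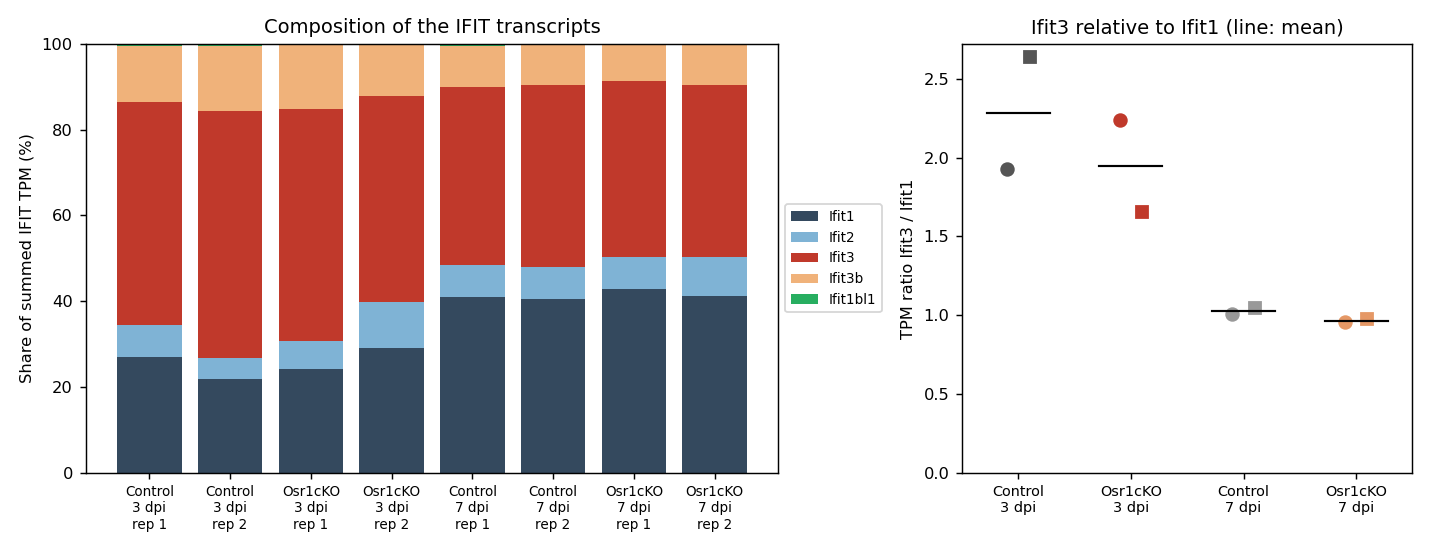
Left, share of each IFIT member in the summed IFIT TPM of each library in percent (stacked bars from 0 to 100); right, ratio of Ifit3 to Ifit1 TPM in each library (circles replicate 1, squares replicate 2, lines group means). Ifit1bl1, at most 0.544% of the sum, is too small to see; the Ifit3 share is 48.2% to 57.4% at 3 dpi and 40.1% to 42.4% at 7 dpi, and the ratio lies between 1.66 and 2.64 at 3 dpi and near 1 at 7 dpi.

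In control FAPs the balance between the families differed between the days. The IFIT members summed to 1636 ± 299 TPM in the controls and 499 ± 399 TPM in Osr1cKO FAPs at 3 dpi, and to 271 ± 36.7 and 214 ± 38.2 TPM at 7 dpi. The IFITM members summed to 8456 ± 483, 6153 ± 1089, 3887 ± 24.1 and 4276 ± 101 TPM in the same order (SD, n = 2 each). IFITM transcripts thus outnumbered IFIT transcripts per length by 5.23 ± 0.662 in control FAPs at 3 dpi and by 14.5 ± 2.05 at 7 dpi. In Osr1cKO FAPs the ratio was 8.87 and 24.8 at 3 dpi and 22.5 and 18.0 at 7 dpi, so that the days overlapped there. Ifitm3 supplied 76.4% to 86.1% of the IFITM sum at 3 dpi and 72.8% to 75.1% at 7 dpi. The lowest value at 3 dpi, 76.4%, was again that of the second Osr1cKO library.

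Likeness of pattern was measured as Pearson's r of log2(TPM + 1) over the 8 libraries, a description over samples that share groups and days. The 5 IFIT members correlated with each other at 0.941 to 0.999. Ifitm3 correlated with the IFIT mean at 0.933, Ifitm2 at 0.421 and Ifitm1 at -0.151. Among 10379 features with a mean of at least 5 TPM, those closest to the IFIT mean were Phf11d (0.998), the RNA sensor Ifih1 (0.996), the GTPase Igtp (0.996) and the guanylate-binding protein gene Gbp7 (0.995). Uba7, the activating enzyme for Isg15, Sp100, Gbp3, the exonuclease gene Isg20, Phf11b and Ifi206 followed, all at 0.992 or more. Closest to Ifitm3 were Tspo, Phlda3, Slc25a22, Shisa5 and the immunoproteasome subunit gene Psmb10, at 0.995 to 0.997. Closest to Ifitm1 were the inflammatory caspase gene Casp4, Chst15, Ip6k1, Slc38a7 and Wdr91, at 0.975 to 0.984. Eps8, Tgfbr3, Ptx3, Zc3h12a and Macrod1 were closest to Ifitm2, at 0.934 to 0.954.

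Genes beside the clusters were examined in the same way. Left of the IFIT cluster, Ch25h, which encodes cholesterol hydroxylase and is itself known as interferon-inducible, measured 23.4 and 20.1 TPM in the controls and 16.5 and 10.5 TPM in Osr1cKO FAPs at 3 dpi. It was called lower there, with a log2 fold change of -0.68 (adjusted p = 0.784), and fell between days in control FAPs by 1.05 (adjusted p = 0.00853) and in Osr1cKO FAPs by 0.93 (adjusted p = 0.0270). At 7 dpi its difference between genotypes was -0.55 (adjusted p = 0.269). Lipa, the lysosomal acid lipase gene between Ch25h and the cluster, lay between 41.2 and 52.2 TPM in all libraries. Right of the cluster, Slc16a12 and Pank1 did not exceed 1.46 TPM. Inside it, Ifit1bl2, which faces Ifit1, measured 5.68 and 4.37 TPM in the controls and 2.11 and 0.953 TPM in Osr1cKO FAPs at 3 dpi and was called lower at -1.28 (adjusted p = 0.770). Beside the IFITM cluster, Pgghg lay between 25.9 and 32.2 TPM. Ifitm5, known from bone-forming cells, had 2.16 to 5.88 TPM in the controls and 1.14 to 1.80 TPM in Osr1cKO FAPs at 3 dpi without being called, and Ifitm6 did not exceed 4.44 TPM. Gm17387 was listed at 0 in all libraries.

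The rest of the interferon pathway was read from lists. Of 14 ligand and receptor genes, 6 could be tested at 3 dpi and 2 were called lower, where 3.95% of all features were. These were Ifnb1 at -2.09 and Ifna4 at -1.60, both with an adjusted limma p of 0.770, named here after their values were seen. Ifnb1, which encodes interferon beta, measured 15.6 and 10.9 TPM in the controls and 4.43 and 1.02 TPM in Osr1cKO FAPs at 3 dpi, and at most 0.693 TPM at 7 dpi. Its libraries kept the order seen for Ifit3 at 3 dpi, as did those of Ifih1, Gbp3 and Isg20, so this order was not particular to Ifnb1. The receptor subunit genes Ifnar1 and Ifnar2 were detected at 44.4 to 64.5 and 61.4 to 84.5 TPM, and neither was called at 3 dpi.

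Of 15 tested genes of sensing and signalling, 14 were lower in Osr1cKO FAPs at 3 dpi, 6 of them called, and none was called higher. Beside these and the following counts, 3.95% of all features were called lower at this day. No feature had an adjusted p under 0.1 in limma. The median log2 fold change was -0.74. Irf7, the transcription factor that amplifies interferon production, went from 872 and 528 TPM in control to 384 and 87.8 TPM in Osr1cKO FAPs. Of 6 feedback inhibitors 3 were called lower. Among them Usp18, which removes Isg15 from proteins, had 303 and 244 TPM in the controls and 164 and 46.6 TPM in Osr1cKO FAPs. Socs3, the most abundant feedback inhibitor, was not called, at -0.37. It measured 1198.5 and 632 TPM in the controls and 660 and 686 TPM in Osr1cKO FAPs. Socs1 was called at -0.39, and Ptpn2 was not called, at 0.16. All 26 further antiviral interferon-stimulated genes were lower, 20 of them called beside the 3.95% of all features, with a median of -1.45. They summed to 9302 and 7354 TPM in the controls and to 5271 and 1575 TPM in the first and second Osr1cKO libraries. These counts rest on the same libraries as those of the IFIT members, so their agreement is no independent support. Bst2, which tethers virus particles, and Isg15, a ubiquitin-like modifier, were the most abundant, and neither was called, at -1.47 and -1.52. The median of the 5 IFIT members, -2.04, lay below that of each of these lists, a description that was not tested. Single antiviral genes lay lower than every IFIT member, the lowest of which was at -2.19. These were Mx1 (-2.83), Oas3 (-2.54), Rsad2 (-2.41), Cmpk2 (-2.39) and Oasl1 (-2.22), named here after their values were seen.

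At 7 dpi, 24 of the 26 antiviral genes were lower on scaled TPM and 0 were called by the adjusted threshold in limma. At an unadjusted p under 0.05 with the same fold change 9 passed, all lower, where 999 of 16577 features passed lower. The median of the 26 genes was -0.24. Bst2, Oasl1 and Oas1a were near 0, at -0.001, -0.005 and -0.011. On deposited TPM Oasl1 measured 11.3 and 10.2 TPM in the controls and 11.7 and 11.9 TPM in Osr1cKO FAPs. In control FAPs 24 of the 26 were called lower at 7 than at 3 dpi, where 25.1% of all features were, with a median of -1.83, beside -2.37 for the 5 IFIT members. In Osr1cKO FAPs 6 of the 26 were called lower between days, no larger a share than the 28.5% of all features called lower, with a median of -0.62, beside -0.95 for the IFIT members. Irf1, in contrast, was called higher at 7 dpi in both genotypes, at 1.34 in control and 1.55 in Osr1cKO FAPs.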

How the data were processed

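RNA of sorted GFP+ FAPs was sequenced from 8 libraries as stranded, paired-end, polyA-selected libraries. The authors aligned reads to mm10 with STAR and calculated the deposited TPM from fragment counts normalised by DESeq2, per their methods and processing notes. The counter, its annotation and its use of strand are not given in the sources used here. The sample labels give the same instrument and read length for all 8 libraries, whereas the paper names instruments with different read lengths. Which day ran on which was not settled. Of 55385 entries per library, 109 repeats of a symbol were left out. Fragments were recovered from TPM with GENCODE vM21 exon lengths. Of values below 50 fragments, 98.7% to 98.9% were whole to within 0.02. Features needed 10 fragments in 2 libraries and 15 in all (without a length, a mean TPM of 1). Libraries were scaled to each other by the mean log ratio after trimming 30%, and limma 3.58.1 (R 4.3.3, lmFit, eBayes with trend) was fitted to log2(TPM + 1) over all features, on the libraries of each comparison. This scale understates changes of low genes. Adjusted p-values are Benjamini-Hochberg. The pipeline was tested on simulated counts drawn with the same spread for every library. A library as far apart as the second Osr1cKO library of 3 dpi was not simulated. Python 3.11.15 and pandas 2.3.3 computed ratios and sequences.

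The members, lists and tests were chosen with earlier results of these data known. Genes were named by rule: the members, the 10 genes most correlated with the IFIT mean and 5 with each IFITM member, 2 neighbours on each side, and up to 4 of highest mean TPM per list. With 2 libraries per group, p-values measure the spread between these samples only, and a permutation test could not reach 0.05. Replicate numbers mark no shared animal. Alternatives were other scalings, filters, pseudocounts and thresholds, limma-voom on recovered fragments, leaving out each library, all 8 libraries in 1 fit and the replicate number as a block. Ifit3 and Ifit3b were summed, and the numbers were crossed, after the data were seen.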

Additional observations from a re-analysis of the deposited data

Results flagged for a closer look

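Ifitm3 was the only member whose libraries moved in opposite directions between the days. On deposited TPM both Osr1cKO libraries lay below both controls at 3 dpi and above both at 7 dpi, and the difference of the log2 effects (7 dpi minus 3 dpi) was 0.71 on that scale. The opposite directions themselves were not tested there. On scaled TPM the 7 dpi libraries overlapped and the difference was 0.56 (95% interval -0.35 to 1.48), with an adjusted limma p of 0.890. No group held enough libraries for a test of a single deviating library.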

How the results depend on the processing

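Limits are set by 2 libraries per group, by the wide gap between the Osr1cKO libraries of 3 dpi, and by 10 to 283 fragments for Ifit1bl1 and 57 to 189 for Ifitm1. At 3 dpi the 6 members called became 2 without a filter on low values (Ifit1bl1 and Ifitm1), 0 at an adjusted p under 0.1, and 2 to 6 with 1 library left out; all features called went from 984 to 0 at the adjusted threshold and to 1775 with all 8 libraries in 1 fit. At 7 dpi the 0 members called became 3 at an unadjusted p under 0.05 and 0 to 1 with 1 library left out (Ifit3, without the first control library); the 11 features called became 191 with limma-voom, 30 with a replicate block and 0 on deposited TPM. The member calls for the day in control FAPs ranged from 5 to 7, and features called higher and lower went from 3991 and 4144 to 3467 and 4888 on deposited TPM. For the day in Osr1cKO FAPs, the 2 members called became 1 without a filter, 1 at an unadjusted p, 4 with all 8 libraries in 1 fit, and 1 to 7 with 1 library left out. For the interaction, the 0 members called became 2 at an unadjusted p and 0 to 1 with 1 library left out. The cause of these changes was not tested.

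With the replicate number as a block, 1 member was called for the day in Osr1cKO FAPs (Ifitm1), and Ifitm3 also lost its call for the day in control FAPs, with 5 of 8 members called there; member counts of the other comparisons did not change. Deviations of same-numbered libraries correlated at -0.137 over 10080 features at 3 dpi and 0.128 over 10356 at 7 dpi. With the numbers crossed at 3 dpi, 6 members and 1189 features were called.

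Directions turned as follows. On deposited TPM at 7 dpi, Ifitm1 was 0.020 and Ifitm2 0.068. With 1 library left out, the log2 value of Ifitm2 ranged from -0.33 to 0.023 at 3 dpi, from -0.30 to 0.064 for the day in Osr1cKO FAPs and from -0.11 to 0.25 for the interaction. At 7 dpi that of Ifitm1 ranged from -0.24 to 0.020 and that of Ifitm3 from -0.0073 to 0.057. For the day in Osr1cKO FAPs, Ifit1 ranged from -1.14 to 0.45.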
